A study of Mus musculus with 6 samples.

Results

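The genes of the GDNF receptor system were examined in mouse tailbuds at embryonic day 9.5: the receptor gene Ret, the co-receptor genes Gfra1, Gfra2, Gfra3 and Gfra4, and the ligand genes Gdnf, Nrtn and Artn. They were taken by name from the gene counts of every library and are 8 of the 37310 Ensembl identifiers listed. Polyadenylated RNA was sequenced from 3 libraries of embryos homozygous for Danforth's short tail (Sd/Sd) and from 3 libraries of wild-type embryos (WT/WT, here WT). Both groups had the outbred CD-1 background, no treatment and the same age. Danforth's short tail is a semidominant mutation caused by DNA inserted beside Ptf1a, a transcription factor gene. It shortens the axis and disturbs the notochord, hindgut and kidneys. Each library holds whole tailbuds cut off in front of the last somite, and per the labels a library could pool the tailbuds of 2 embryos, without saying which.

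GDNF, neurturin and artemin are secreted proteins that each bind a preferred GFRα co-receptor at the cell surface, and the complex activates the RET tyrosine kinase. In the mouse embryo RET in the nephric duct responds to GDNF from the neighbouring mesenchyme to form the ureteric bud, and RET in neural crest cells is needed for the enteric nervous system. Loss of Ret, Gdnf or Gfra1 in mice leads to missing or small kidneys. Kidney defects are also a feature of Danforth's short tail mice, and the comparison gives the transcript levels of this system in the tailbuds of both genotypes.

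The libraries held 41788978 to 62296689 counts. Ptf1a checked the labels: it had 2671 counts over the Sd/Sd libraries and 8 over the WT libraries. Tailbud markers were present, with the mesoderm gene T at 77.1 to 203 CPM in Sd/Sd and 144 to 184 CPM in WT (counts scaled to a common library size with TMM factors), and all 11 tailbud progenitor markers passed the filter on low counts. Sd/Sd replicate 3 stood apart: its summed CPM over 11 somite markers was 27.9, the lowest of the Sd/Sd libraries, which reached 436, against 184 to 276 in WT. In whole tailbuds, fewer cells of a type and less RNA per cell cannot be told apart.

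All 8 family genes passed the filter on low counts, and 0 of 8 differed between genotypes by edgeR's quasi-likelihood test with Benjamini-Hochberg adjustment over 15471 genes (threshold 0.05), where 0.0582% of all tested genes did. At an unadjusted p under 0.05 the count was 2 of 8, Ret and Gfra3, against 2.90% of all genes. Ret was lower in every Sd/Sd library than in any WT library, and Gfra3 was higher in every Sd/Sd library than in any WT library. Non-overlapping values were found for 3.26% of tested genes in the higher direction and 4.42% in the lower direction. DESeq2, run as an alternative, called Gfra3 and no other family gene, where it called 0.220% of all genes.

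**Figure D1:**
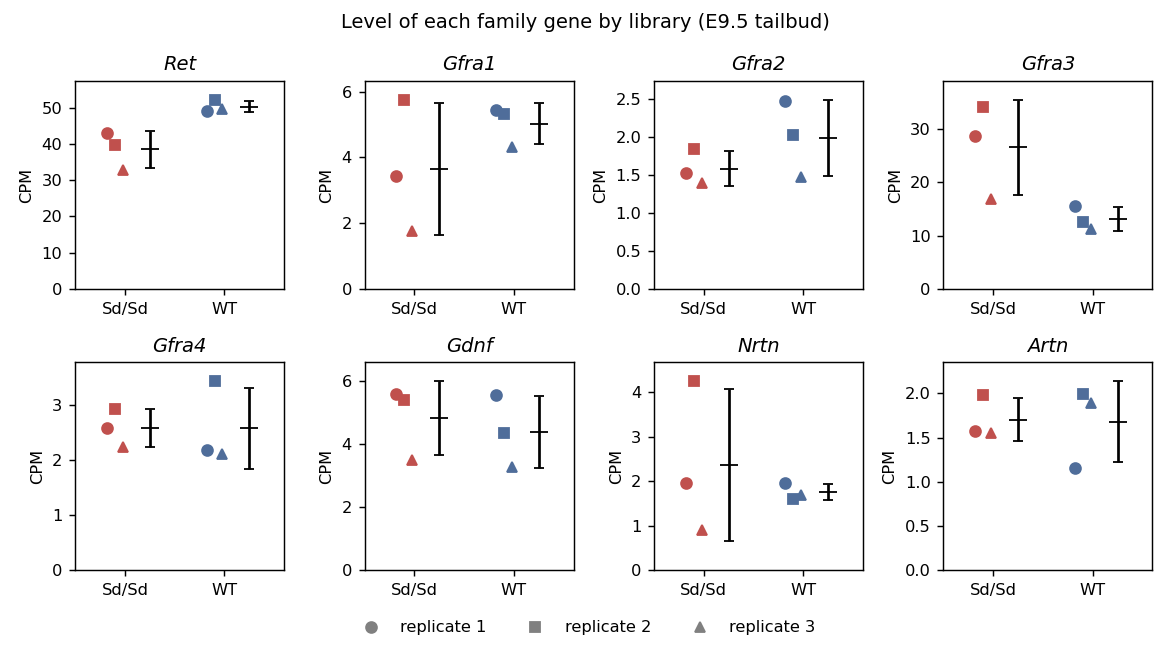
Level in CPM (vertical axes from 0) of each family gene in the 3 Sd/Sd and 3 WT libraries. Marker shapes give the replicate number, and the bars give the mean and SD of each group. Ret and Gfra3 are the genes whose groups do not overlap.

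Ret encodes the signalling receptor on which all the co-receptors converge. Ret (ENSMUSG00000030110.6, chromosome 6) measured 43.0, 39.6 and 32.8 CPM in Sd/Sd replicates 1, 2 and 3, against 49.2, 52.1 and 49.6 CPM in WT replicates 1, 2 and 3. The WT values lay close together, and the Sd/Sd values lay below them and spread further, with replicate 3 the lowest. The group means were 38.5 ± 5.17 CPM in Sd/Sd and 50.3 ± 1.59 CPM in WT (SD, n = 3 each). The log2 fold change was -0.39 (SE 0.10, 95% interval -0.62 to -0.16, edgeR unadjusted p = 0.00420, adjusted p = 1.00). Without Sd/Sd replicate 3 the log2 fold change was -0.29.

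Markers of the nephric duct, a tissue that expresses Ret, had summed levels that did not overlap between genotypes. The sum was 88.6 to 111 CPM in Sd/Sd and 120 to 124 CPM in WT over 10 tested of 11 listed genes, of which Bmp7 and Gata3 were highest. Of these, 0 passed the test and 8 had a log2 fold change below 0. The median was -0.34 beside 0.00 over all tested genes. Groups did not overlap for 3 of the 10, beside 7.68% of all tested genes: Pax2 and Gata3 were lower and Wnt11 was higher. The shift was not particular to this list: 7 of 11 hindgut markers, given below, had groups without overlap. Wnt11 measured 8.78, 9.42 and 9.48 CPM in Sd/Sd, against 6.28, 8.74 and 7.46 CPM in WT (log2 fold change 0.30). Pax2, a transcription factor that acts upstream of Ret in the mouse nephric duct, measured 8.03, 8.54 and 6.87 CPM in Sd/Sd, against 11.6, 11.1 and 11.5 CPM in WT (log2 fold change -0.54 with SE 0.14; adjusted p = 0.944 in edgeR). Gata3, another duct factor needed for Ret expression in mice, averaged 17.8 ± 0.653 CPM in Sd/Sd and 22.3 ± 2.18 CPM in WT (SD, n = 3 each; log2 fold change -0.32 with SE 0.11; adjusted p = 1.00 in edgeR). The part of the nephric duct markers in the Ret result was not tested.

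Gfra3 encodes GFRα3, the co-receptor for artemin, known in the mouse from sympathetic and sensory neuron precursors. Gfra3 (ENSMUSG00000024366.7, chromosome 18) measured 28.7, 34.2 and 16.8 CPM in Sd/Sd replicates 1, 2 and 3, against 15.6, 12.6 and 11.2 CPM in WT replicates 1, 2 and 3. The groups did not overlap, but the lowest Sd/Sd library lay only just above the highest WT library. The means were 26.6 ± 8.88 CPM in Sd/Sd and 13.1 ± 2.23 CPM in WT (SD, n = 3 each), a fold of 2.02 (log2 fold change 1.02, SE 0.26, 95% interval 0.39 to 1.64). It did not pass edgeR's test (unadjusted p = 0.00645, adjusted p = 1.00), while DESeq2 gave an adjusted p = 0.00490. With the replicate number as a block the edgeR adjusted p was 0.136, and without Sd/Sd replicate 3 it was 0.0514 with a log2 fold change of 1.26. Without Sd/Sd replicate 2 the log2 fold change was 0.79 (edgeR adjusted p = 0.802).

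Neural crest and neuron markers varied between libraries beside Gfra3. Of 10 neural crest markers 8 were tested and 0 passed, with a median log2 fold change of 0.08 and a summed level of 77.5 to 113 CPM in Sd/Sd and 78.3 to 86.6 CPM in WT. The most abundant of them were Ngfr, a receptor gene expressed by migrating crest cells, and Erbb3, a receptor gene of crest and glial precursors. Ngfr measured 62.7, 52.8 and 47.3 CPM in Sd/Sd, against 43.1, 40.7 and 45.6 CPM in WT, higher in every Sd/Sd library than in any WT library (log2 fold change 0.33 with SE 0.11; unadjusted p = 0.0128 and adjusted p = 1.00 in edgeR). It was the 1 marker without overlap of the 8 tested, beside 7.68% of all tested genes. Erbb3 averaged 16.5 ± 1.13 CPM in Sd/Sd and 18.7 ± 1.96 CPM in WT (SD, n = 3 each; log2 fold change -0.19, edgeR adjusted p = 1.00). Sox10, a factor of migrating crest that was chosen after its values were seen, measured 0.995, 6.56 and 0.0204 CPM in Sd/Sd, against 1.35, 0.360 and 0.213 CPM in WT. Its highest and lowest values were both in Sd/Sd libraries.

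Of 11 sensory and sympathetic neuron markers 9 were tested and 0 passed, with a median log2 fold change of 0.11 and with Tubb3 and Stmn2 highest. Their summed level was 23.2 to 32.0 CPM in Sd/Sd and 26.3 to 30.5 CPM in WT. The part of neural crest and neuron markers in the Gfra3 result was not tested.

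Gfra1 encodes the preferred co-receptor for GDNF. Gfra1 (ENSMUSG00000025089.8, chromosome 19) measured 3.44, 5.75 and 1.75 CPM in Sd/Sd replicates 1, 2 and 3, against 5.44, 5.32 and 4.31 CPM in WT replicates 1, 2 and 3. Sd/Sd replicate 2 was the highest of all libraries and Sd/Sd replicate 3 the lowest, so the groups overlapped. The log2 fold change was -0.46 (SE 0.38, 95% interval -1.34 to 0.42, edgeR adjusted p = 1.00), and without Sd/Sd replicate 3 it was -0.12. Without Sd/Sd replicate 2 it was -0.96 (edgeR unadjusted p = 0.0130, adjusted p = 0.802).

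Gfra2 and Gfra4 encode the preferred co-receptors for neurturin and, in mammals, for persephin. Gfra2 (ENSMUSG00000022103.8, chromosome 14) measured 1.53, 1.84 and 1.39 CPM in Sd/Sd, against 2.47, 2.02 and 1.47 CPM in WT, with overlap (log2 fold change -0.33, 95% interval -0.95 to 0.30, edgeR adjusted p = 1.00). Gfra4 (ENSMUSG00000027316.8, chromosome 2) measured 2.57, 2.92 and 2.24 CPM in Sd/Sd, against 2.18, 3.42 and 2.11 CPM in WT. Its log2 fold change was 0.00 (95% interval -0.59 to 0.59, edgeR adjusted p = 1.00), an interval that leaves room for a rise or a fall. Gfra4 had 89 to 183 counts a library, and its coefficient of variation between libraries in the edgeR fit was 26.2%, beside a counting error of 7.39% to 10.6%.

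Among the ligands, Gdnf encodes the factor that draws out the ureteric bud. Gdnf (ENSMUSG00000022144.3, chromosome 15) measured 5.58, 5.398 and 3.49 CPM in Sd/Sd replicates 1, 2 and 3, against 5.56, 4.33 and 3.27 CPM in WT replicates 1, 2 and 3. In both groups replicate 3 was the lowest, and the groups overlapped over nearly their whole range. The log2 fold change was 0.13 (SE 0.26, 95% interval -0.45 to 0.72, edgeR adjusted p = 1.00).

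Nrtn, the neurturin gene, was the least even member within a genotype. Nrtn (ENSMUSG00000039481.5, chromosome 17) measured 1.97, 4.25 and 0.897 CPM in Sd/Sd replicates 1, 2 and 3, against 1.97, 1.61 and 1.71 CPM in WT. The highest and the lowest library were both Sd/Sd, while the WT values lay together. Its log2 fold change was 0.43 (SE 0.50, 95% interval -0.71 to 1.58, edgeR adjusted p = 1.00), without Sd/Sd replicate 2 it was -0.31, and without Sd/Sd replicate 3 it was 0.83. Artn, the artemin gene (ENSMUSG00000028539.8, chromosome 4), measured 1.58, 1.98 and 1.55 CPM in Sd/Sd, against 1.16, 1.99 and 1.89 CPM in WT (log2 fold change 0.02, 95% interval -0.63 to 0.67, edgeR adjusted p = 1.00).

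**Figure D2:**
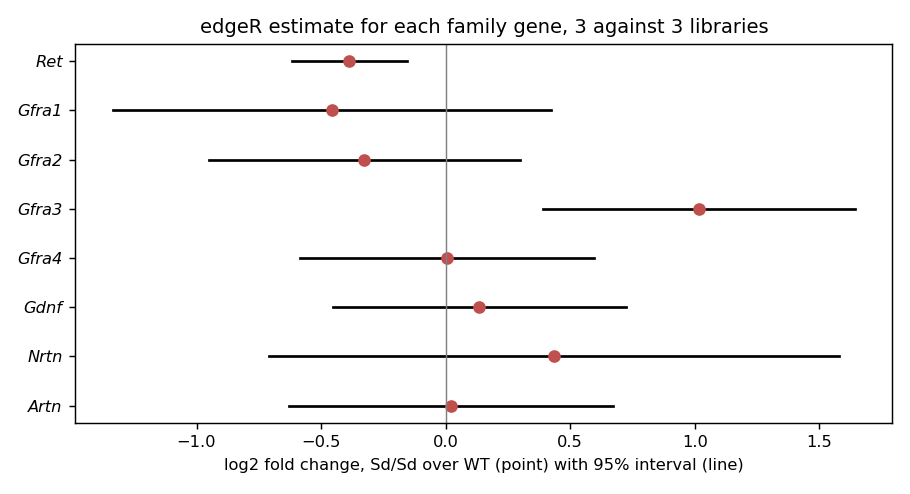
Log2 fold change of Sd/Sd over WT from edgeR (points, horizontal axis) with its 95% interval (lines) for the 8 family genes, 3 libraries in each group. The intervals of Ret, -0.62 to -0.16, and Gfra3, 0.39 to 1.64, lie on 1 side of 0 before adjustment over all genes, and the other intervals cross 0.

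The remaining relatives were almost silent. Gfral, the gene of the GDF15 receptor, had 0 counts in every library, which allows up to 0.0196 CPM in Sd/Sd and 0.0203 CPM in WT at a floor of 3 counts over the group. Pspn, the persephin gene, had 0 counts in Sd/Sd and 3 counts in WT, all of them in WT replicate 3. Gdf15 had 16 counts in Sd/Sd and 32 counts in WT, of which 22 were in WT replicate 1. These 3 genes failed the filter and were not tested.

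Sd/Sd replicates 2 and 3 were the highest and the lowest library for Gfra1 and for Nrtn. Centred on the mean of the 6 libraries, log2 Gfra1 stood at 0.50 in Sd/Sd replicate 2 and -1.19 in Sd/Sd replicate 3, and log2 Nrtn at 1.18 and -1.02. The same 2 libraries were the ends of the somite markers, with mean centred log2 CPM of 1.45 and -2.89, and of the neural crest markers, at 0.87 and -1.10. They were also the ends of the nephrogenic mesenchyme markers, at 0.46 and -1.04, and of the sensory and sympathetic neuron markers, at 0.65 and -0.74. The tailbud progenitor markers ran the other way, at -0.60 and 0.32. In WT the somite markers ranged from -0.57 to 0.76 and the neural crest markers from -0.42 to 0.49. Of the 11 somite markers, of which Meox1 and Pax3 were highest, all were tested and 0 passed, with a median log2 fold change of 0.27. Their part in the spread of Gfra1 and Nrtn was not tested.

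**Figure D3:**
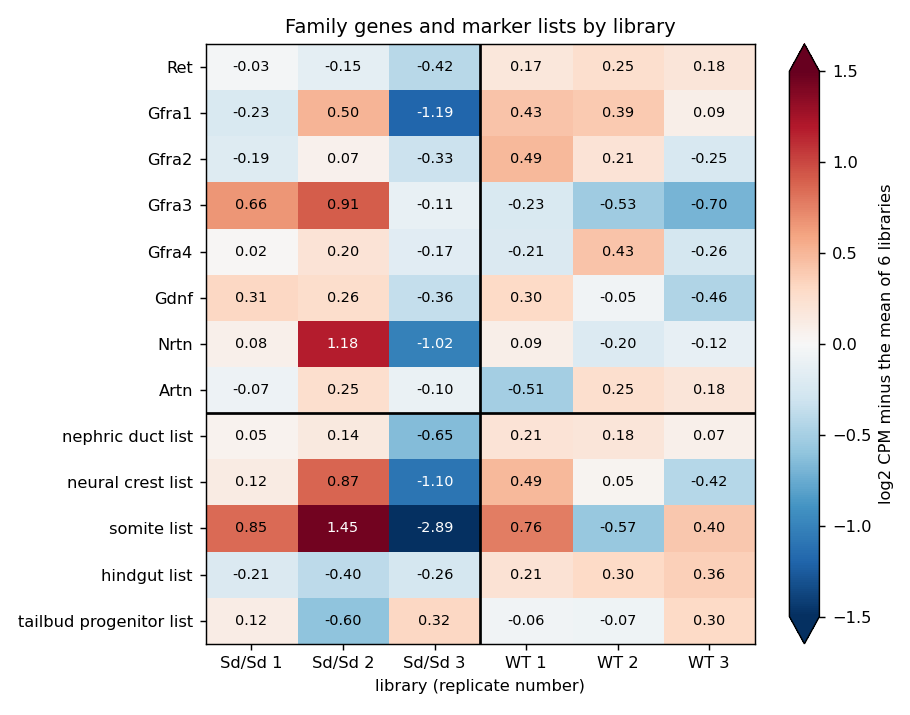
Log2 CPM minus the mean of the 6 libraries for each family gene (upper rows) and for the mean of 5 marker lists (lower rows), by library, with colour running from blue for low to red for high. Sd/Sd replicates 2 and 3 are the highest and lowest libraries for Gfra1 and Nrtn as for the somite and neural crest lists, while Ret is below 0 in all 3 Sd/Sd libraries.

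Levels of different genes were compared per kilobase of exon. In Sd/Sd, Gfra3 had the highest level at 13.3 ± 4.45 CPM per kilobase, then Ret at 5.69 ± 0.765, and in WT Ret had 7.44 ± 0.235 and Gfra3 6.58 ± 1.116 CPM per kilobase (SD, n = 3 each). The ranges of Gfra3 and Ret did not overlap in Sd/Sd and overlapped in WT. Per kilobase of coding length the order of this pair was the same in each genotype, without overlap in either. Nrtn followed at 2.32 ± 1.67 CPM per kilobase in Sd/Sd and 1.72 ± 0.184 in WT, then Gdnf at 1.31 ± 0.315 and 1.19 ± 0.312, and Gfra4 at 1.19 ± 0.157 and 1.19 ± 0.342. Per kilobase of coding length the order turned: Gdnf was above Nrtn in both genotypes, at 6.70 ± 1.61 in Sd/Sd and 6.09 ± 1.59 CPM per kilobase in WT, while Nrtn had 4.05 ± 2.93 in Sd/Sd and 3.01 ± 0.322 in WT (SD, n = 3 each). The ranges of Gdnf and Nrtn then overlapped in Sd/Sd and did not overlap in WT.

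The lower end of the order was less settled. In Sd/Sd, Artn had 0.708 ± 0.1002, Gfra1 0.666 ± 0.366 and Gfra2 0.448 ± 0.0650 CPM per kilobase, and in WT Gfra1 had 0.917 ± 0.113, Artn 0.698 ± 0.189 and Gfra2 0.561 ± 0.141 CPM per kilobase (SD, n = 3 each). Neighbours in the exon-based order from Nrtn to Gfra2 overlapped, apart from Gfra4 above Artn in Sd/Sd and Nrtn above Gdnf in WT. Coding length moved Gfra1 up to the fourth place in WT, at 3.43 ± 0.424 CPM per kilobase, with a range that overlapped that of Nrtn, and left it above Gfra2 alone in Sd/Sd, at 2.49 ± 1.37 (SD, n = 3 each). The co-receptor of GDNF was below Ret in every library on both lengths. The ratio of Gfra1 to Ret per kilobase of exon was 0.0990, 0.179 and 0.0660 in Sd/Sd, against 0.137, 0.126 and 0.107 in WT. Per kilobase of coding length it was 0.185, 0.335 and 0.123 in Sd/Sd, against 0.255, 0.235 and 0.2002 in WT.

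Gfra3 made up most of the summed Gfra1 to Gfra4 level per kilobase in every library. Its share was 86.5%, 85.4% and 82.8% in Sd/Sd replicates 1, 2 and 3, against 74.3%, 66.9% and 72.1% in WT replicates 1, 2 and 3. The share of Gfra1 was 4.05 ± 1.07% in Sd/Sd and 9.95 ± 0.433% in WT, and that of Gfra2 was 3.01 ± 0.726% in Sd/Sd and 6.01 ± 0.657% in WT (SD, n = 3 each). The shares of Gfra3, Gfra1 and Gfra2 did not overlap between genotypes, while those of Gfra4 did, at 6.73% to 10.2% in Sd/Sd libraries against 9.59% to 16.8% in WT. Since shares sum to a whole, a higher share of Gfra3 lowers the others. Among the 3 ligands, Gdnf held 32.8 ± 8.66% of the summed level per kilobase in Sd/Sd and 32.7 ± 5.99% in WT (SD, n = 3 each). Per kilobase of coding length, the share of Gfra3 was 78.8% in Sd/Sd and 60.8% in WT, that of Gfra1 was 8.38% in Sd/Sd and 19.0% in WT, that of Gfra2 was 3.26% in Sd/Sd and 5.998% in WT, and that of Gdnf was 51.9% in both. The shares of Gfra3, Gfra1 and Gfra2 did not overlap between genotypes on coding length either.

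**Figure D4:**
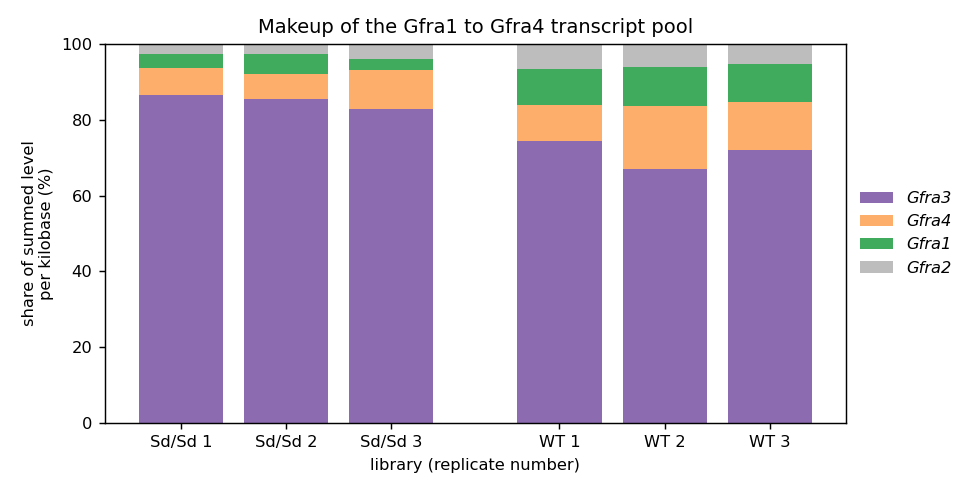
Share in percent of each co-receptor gene in the summed level per kilobase of Gfra1 to Gfra4 (vertical axis), for each library by replicate number. Gfra3 takes 82.8% to 86.5% in the Sd/Sd libraries and 66.9% to 74.3% in the WT libraries.

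Ratios within a library do not depend on how libraries are scaled. The count of Gfra3 divided by that of Ret was 0.669, 0.865 and 0.513 in Sd/Sd, against 0.317, 0.242 and 0.226 in WT. Every Sd/Sd ratio was above every WT ratio, a difference of 1.37 on the log2 scale (2-sided exact permutation p = 0.1, the smallest that 3 against 3 libraries can give; adjusted over 5 ratios 0.333). Gfra3 was higher and Ret lower in every Sd/Sd library, so this separation and its p were fixed in advance and add no support. The ratio of Gdnf to Ret was 0.130, 0.136 and 0.106 in Sd/Sd, against 0.113, 0.0832 and 0.0659 in WT (log2 difference 0.54, exact permutation p = 0.2, adjusted 0.333), and higher in Sd/Sd in 3 of 3 same-numbered pairs. The ratio of Gdnf to Gfra1 differed by 0.75 on the log2 scale (exact permutation p = 0.2, adjusted 0.333), that of Gfra1 to Ret by -0.22 and that of Gfra2 to Ret by 0.09 (exact permutation p = 0.7 and adjusted 0.700 for both).

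Genes that carry the signal from RET into the cell gave no call. Of 32 adaptors and members of the Ras and MAP kinase pathway, all tested, 0 rose and 0 fell, with a median log2 fold change of 0.01, and 3 had non-overlapping groups beside 7.68% of all tested genes. Grb7, an adaptor that binds phosphorylated RET, measured 27.3, 28.4 and 22.2 CPM in Sd/Sd, against 32.0, 34.8 and 30.7 CPM in WT. Its groups did not overlap (log2 fold change -0.32 with SE 0.11; adjusted p = 1.00 in edgeR). Pdlim7, the gene of the RET-binding scaffold Enigma, averaged 128 ± 5.34 CPM in Sd/Sd and 144 ± 2.67 CPM in WT (SD, n = 3 each; log2 fold change -0.18, edgeR adjusted p = 1.00).

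Of 12 genes that RET signalling induces in the mouse ureteric bud, all tested, 0 passed, with a median log2 fold change of -0.06. Cxcr4, a chemokine receptor gene, averaged 20.7 ± 1.38 CPM in Sd/Sd and 28.4 ± 7.98 CPM in WT (SD, n = 3 each; log2 fold change -0.45, edgeR adjusted p = 1.00), and the groups overlapped. Wnt11, a ligand of the bud tip, averaged 9.23 ± 0.389 CPM in Sd/Sd and 7.49 ± 1.23 CPM in WT (SD, n = 3 each; log2 fold change 0.30, edgeR adjusted p = 1.00). Its groups did not overlap, and it is also on the nephric duct list above. The transcription factor genes Etv4 and Etv5, which are also known targets of FGF signalling in the tailbud, had log2 fold changes of -0.08 and 0.04. Etv4 and Etv5 were picked with their values known.

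Of 13 co-receptors and modulators, all tested, 0 passed, with a median log2 fold change of 0.01. Sdc3, which encodes the heparan sulfate proteoglycan syndecan-3 that can bind GDNF, had a log2 fold change of -0.14, and Cbl, which encodes a ubiquitin ligase of activated receptors, one of 0.15 (edgeR adjusted p = 1.00 for both). Of 20 regulators of Gdnf, all tested, 0 passed and 15 had a log2 fold change below 0; the median was -0.04. Fras1, a basement membrane gene, had a log2 fold change of -0.24, and Hoxd11, a homeobox gene of the metanephric mesenchyme, one of -0.45 (edgeR adjusted p = 1.00 for both).

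Of 14 regulators of Ret, 13 were tested and 0 passed, with a median log2 fold change of 0.02. Sox8, which together with Sox9 supports RET signalling in the mouse ureteric bud, measured 7.01, 9.74 and 6.43 CPM in Sd/Sd, against 3.32, 4.98 and 3.51 CPM in WT. The groups did not overlap (log2 fold change 0.97 with SE 0.23; adjusted p = 0.840 in edgeR), and DESeq2 called Sox8 (adjusted p = 0.0298). Pax2, given above, was the other gene of this list with the smallest p.

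The genes whose pattern over the 6 libraries was most like that of Ret were sought by the root mean square difference of centred log2 CPM among 10404 genes of at least 5 CPM. They were Grb7 (0.0691), Trim46 (0.0704), Gm12258 (0.0800), Zfp800 (0.0837) and Clip4 (0.0865), against 0.230 for a gene that did not vary. For Gfra3 they were Pgbd5 (0.174), Skida1 (0.231), Col26a1 (0.240), Itih5 (0.250) and Cacna1g (0.271), against 0.590 for a gene that did not vary. Of these, 0 passed the edgeR test. These values describe 6 libraries of whole tailbuds that differ in depth, and carry no test.

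Other cell types in the dissection were followed by the same marker lists. Motor neuron markers, of which 5 of 9 were tested with a median log2 fold change of -0.57, had a summed level of 36.4 to 57.2 CPM in Sd/Sd and 51.1 to 54.4 CPM in WT, with Isl1 and Mnx1 highest, and Chat had 5 counts in all 6 libraries together. This median was that of Isl2, which averaged 1.57 CPM in Sd/Sd and 2.35 CPM in WT. Lhx3 and Slc5a7 had only 4 to 30 counts a library. Hindgut markers were the only list with a member past the threshold, 1 lower of 11, namely Shh, with a median log2 fold change of -0.52 and with Krt8 and Krt18 highest. All 11 log2 fold changes were below 0, but those of Krt8 and Krt18 were -0.083 and -0.0016. Groups did not overlap for 7 of the 11, beside 7.68% of all tested genes. In whole tailbuds the list does not show which tissue expressed Shh. Median log2 fold changes were -0.04 for nephrogenic mesenchyme (9 of 10 tested, with Sall1 and Meox1 highest), -0.04 for tailbud progenitors (Dll1 and T), -0.19 for endothelium (10 tested, Cdh5 and Kdr), -0.22 for primitive erythroid cells (7 tested, Hba-x and Hbb-y), -0.81 for visceral yolk sac (6 of 8 tested, Afp and Cubn) and -0.06 for surface ectoderm (8 tested, Krt8 and Krt18). Yolk sac markers were low: Afp and Cubn, the highest, averaged 2.12 and 1.38 CPM over the 6 libraries. Groups did not overlap for 4 of the 6 tested yolk sac markers, of which Amn was higher in Sd/Sd. The same held for 1 endothelium and 1 motor neuron marker, and for 0 markers of the other lists in this paragraph. The part of these marker lists in the values of the family genes was not tested.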

How the data were processed

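Each library has 1 file, in which the authors deposited unnormalized counts for every Ensembl gene. Per the submitters' processing notes, STAR 2.5.2b, bcl2fastq 2.17.1.14, CASAVA, DESeq2 and SAMtools are the tools named and mm9 is the build. Counter, strand setting and annotation were not given in the sources used here. A stranded mRNA kit was used, per the labels' protocols. Symbols (32620 of 37310 identifiers) came from a separate list of gene names. Chromosomes and exon lengths came from GENCODE M21 on GRCm38, so levels per kilobase are approximate and no coordinates are given. Gm16277, which overlaps Gfra1 on the opposite strand, had 0 counts in every library. All identifiers on chromosome X are listed at 0, which covers the marker Cited1. Some list genes are not reported here as single genes.

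filterByExpr (minimum count 10, minimum total 15) left 15471 genes, which were compared with edgeR 4.0.16 in R 4.3.3 (TMM, robust glmQLFit and glmQLFTest, 2-sided, Benjamini-Hochberg, threshold 0.05). Standard errors are the log2 fold change over the root of F. Log2 CPM used a prior count of 2. Alternatives were DESeq2 1.42.0, limma 3.58.1 (voom), other scalings, filters and dispersions, each library left out, and a replicate block. The script was tested on simulated data. The family genes and gene lists were chosen with earlier results of these data known. Named were all family genes and relatives, the 2 list genes of smallest p where none passed, the 2 highest markers of each list, and the genes most like Ret and Gfra3; others are marked as chosen after their values were seen.

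Same-numbered Sd/Sd and WT libraries deviated together from their group means, with correlations of 0.194, 0.144 and 0.275 over 15471 genes for numbers 1, 2 and 3, all above 0.1. The numbers were therefore used as pairs in the replicate block, but Sd/Sd replicate 2 and WT replicate 1 also correlated at 0.182. Since a pair with different numbers passed 0.1 as well, these correlations, which carry no test, do not establish that the libraries were paired. The labels do not tie libraries to litters, and p-values therefore reflect the spread among these samples, which may be technical. Floors cover counting error only.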

Additional observations from a re-analysis of the deposited data

How the results depend on the processing

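Ret stayed lower and uncalled in all alternatives, with a log2 fold change of -0.47 to -0.29 when 1 library was left out, and Gfra3 stayed higher, at 0.79 to 1.26; DESeq2 alone called Gfra3 (log2 fold change 1.02, adjusted p = 0.00490), which made 1 called family gene against 0 in edgeR, and it called 1 regulator of Ret. With 1 library left out, log2 fold changes ranged from -0.96 to -0.12 for Gfra1, -0.50 to -0.14 for Gfra2, -0.037 to 0.35 for Gdnf, -0.31 to 0.83 for Nrtn, -0.18 to 0.17 for Artn and -0.12 to 0.27 for Gfra4, so the signs of the last 4 turned. Gfra4 also turned sign with upper-quartile factors (-0.004) and with library size only (-0.009). The log2 ratio differences ranged from -0.60 to 0.12 for Gfra1 to Ret, -0.10 to 0.28 for Gfra2 to Ret, 0.35 to 0.74 for Gdnf to Ret, 0.52 to 1.07 for Gdnf to Gfra1 and 1.18 to 1.56 for Gfra3 to Ret; the smallest p of the paired test is 0.25. Over all genes, 9 were called in the main edgeR test, 34 by DESeq2, 3 by limma-voom, 14 without a filter, 3 without the robust option, 12 with the replicate block and 2 to 6 with 1 library left out. The replicate block changed no call of a family gene or pathway list: Ret had a log2 fold change of -0.40 (adjusted p = 0.388) and Gfra3 one of 0.97 (adjusted p = 0.136). Coding length in place of exon length, added after seeing the data, put the share of Gfra3 at 78.8% in Sd/Sd and 60.8% in WT and that of Gdnf at 51.9% in Sd/Sd and 51.9% in WT; with 1 library left out the shares per exon kilobase were 84.1% to 86.0% and 69.5% to 73.2% for Gfra3, and 29.9% to 37.8% and 29.8% to 35.8% for Gdnf. The causes of these shifts were not tested. Gfra2, Nrtn, Artn and Gfra4 had 44 to 266 counts in a library, which gives a counting error of 6.13% to 15.1%, below their coefficients of variation between libraries of 26.2% to 43.5%.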
